A study of Mus musculus with 8 samples.

Results

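Inflammasome sensors and members of the interleukin-1 family were examined in the colon of chimeric mice lacking proenkephalin in hematopoietic cells. The 10 genes (Nlrp1b, Nlrp6, Nlrp3, Pycard, Casp1, Casp4, Gsdmd, Il18, Il1b and Il33) were chosen by name on earlier results of these data, out of 26008 genes with a normalized count. All 10 were found and all 10 passed the filter on low values. Their differences between genotypes are therefore given as a description. Colonic biopsies from 4 penk-/- and 4 penk+/+ chimeras were sequenced as bulk RNA, each mouse giving 1 library. Recipients were male C57BL/6JRj mice, wild type for Penk, that were lethally irradiated at 7 weeks of age and examined 18 weeks after engraftment. Bone marrow came either from male Penk-/- donors (B6.129-Penk-rstm1Pig/J) or from male Penk+/+ donors, all 9 to 11 weeks old. The genotype thus concerned cells derived from the graft, whereas the epithelium and the muscle were those of the recipient in both groups.

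Inflammasomes are cytosolic complexes in which a sensor recognizes microbial products or a disturbance of the cell. The sensor then recruits caspase-1, in many cases through the adaptor ASC, encoded by Pycard. Caspase-1 cleaves the precursors of interleukin-1 beta and interleukin-18 as well as gasdermin D, whose released fragment forms pores in the plasma membrane. Caspase-11, encoded by Casp4 in the mouse, responds to lipopolysaccharide in the cytosol and cleaves gasdermin D without a canonical inflammasome. In the intestine, Nlrp6 and interleukin-18 are known for their activity in epithelial cells, whereas Nlrp3 and interleukin-1 beta are chiefly products of myeloid cells. Nlrp1b was placed with the epithelial members for the comparison, and the cells that expressed it were not determined. Interleukin-33 is a nuclear alarmin, found in the intestine mainly in stromal and endothelial cells. Since the values are mRNA levels, neither assembly of the complexes nor cleavage was measured.

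The sequences that precede the start of the members the comparison turns on are shown first, because Nlrp1b and Nlrp6 varied together across libraries and Il1b stood on the other side of the comparison. They are the 250 bases before a start annotated by RefSeq (sequence table of GRCm38.p6), were matched exactly to a single place of GRCm39, and are written 5′ to 3′ on the strand of the gene. A RefSeq sequence was matched for 9 of the 10 members. Capitals mark matches, on either strand, to 6 motifs: NF-kB (GGGANTTCC), AP-1 (TGANTCA), ISRE (GAAANNGAA), PU.1 (GAGGAAGT), HNF4 (CAAAGTCCA) and the TATA box (TATAAA). No matches overlapped in these 4 sequences.
Nlrp1b, chr11:71121560-71121809, minus strand: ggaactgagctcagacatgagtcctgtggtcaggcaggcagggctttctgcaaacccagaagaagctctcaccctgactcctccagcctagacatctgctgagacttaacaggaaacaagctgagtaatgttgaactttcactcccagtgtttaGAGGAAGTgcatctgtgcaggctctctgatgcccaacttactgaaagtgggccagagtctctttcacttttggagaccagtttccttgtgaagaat
Nlrp6, chr7:140500565-140500814, plus strand: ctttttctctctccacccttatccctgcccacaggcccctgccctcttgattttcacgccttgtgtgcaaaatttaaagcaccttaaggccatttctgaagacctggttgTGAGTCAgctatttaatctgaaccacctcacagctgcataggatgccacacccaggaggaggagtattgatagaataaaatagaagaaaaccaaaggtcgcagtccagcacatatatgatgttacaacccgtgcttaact
Il18, chr9:50465750-50465999, plus strand: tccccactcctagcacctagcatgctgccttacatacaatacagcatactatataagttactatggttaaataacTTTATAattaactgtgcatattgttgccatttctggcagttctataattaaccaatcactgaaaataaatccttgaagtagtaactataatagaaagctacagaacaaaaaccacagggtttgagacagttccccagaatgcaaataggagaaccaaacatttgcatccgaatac
Il1b, chr2:129213060-129213309, minus strand: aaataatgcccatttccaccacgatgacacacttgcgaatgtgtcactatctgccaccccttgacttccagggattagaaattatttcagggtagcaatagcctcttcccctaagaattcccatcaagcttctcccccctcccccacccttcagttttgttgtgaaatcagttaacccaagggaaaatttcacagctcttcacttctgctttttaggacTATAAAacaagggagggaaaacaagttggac
The Nlrp1b window, the upstream one of the starts annotated, held a PU.1 match and the Nlrp6 window an AP-1 match. The Il18 and Il1b windows held a TATA box match each, on the strand opposite to the gene for Il18 and 31 to 26 bases before the start for Il1b. Of the 32851 windows of the same length in the table, 2.44% held the PU.1 letters, 6.75% the AP-1 letters and 12.4% the TATA box letters. NF-kB letters were present in 1.43% of all windows, ISRE letters in 7.13% and HNF4 letters in 0.384%, and none of these 3 motifs was matched in the 4 windows shown. No motif was shared by the Nlrp1b and Nlrp6 windows. Of the other members, Casp4 had 2 NF-kB matches in either of its annotated windows, Pycard a PU.1 match, and Il33 a TATA box match in both of its windows.

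The deposited values are counts of reads scaled by the size factor of their library. Between 33.1 M and 50.7 M reads were counted on genes per mouse. Probasin (Pbsn), a product of the male accessory glands, was abundant in a single library of each genotype, with 105658 normalized counts in penk-/- replicate 3 and 111024 in penk+/+ replicate 4, against at most 13425 in the other 6 libraries. The members are therefore also given without this pair of libraries. The group values of the marker sums and the fold changes of the other genes of the pathway are given with this pair included. Penk itself was at 453, 512, 616 and 531 normalized counts in penk-/- replicates 1 to 4 and at 473, 496, 560 and 636 in penk+/+ replicates 1 to 4. The groups overlapped, so that Penk mRNA of the whole colon did not separate the genotypes of the grafts.

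Across the 19127 genes tested with limma (Benjamini-Hochberg adjustment), 0 genes had an adjusted p below 0.05 (0%) and 1842 genes had an unadjusted p below 0.05 (9.63%). The adjusted p of the 10 members ranged from 0.323 for Nlrp1b to 0.985 for Il1b. This call depended on the tool. On the reads recovered from the normalized counts, edgeR also called 0 genes (0%), whereas DESeq2, also the tool of the study, here called 205 genes (1.07%), Nlrp1b (adjusted p = 0.000389) and Nlrp6 (adjusted p = 0.0395) among them. Without penk-/- replicate 1, limma called 6 genes, and Nlrp1b was one of them (adjusted p = 0.0361). Because the members were chosen on this same contrast, none of these values is an independent test of them.

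Among the sensors, Nlrp1b was the member with the largest difference. This sensor can be activated by proteolytic cleavage. Its normalized counts were 1244, 980, 850 and 941 in penk-/- replicates 1 to 4 and 1546, 1556, 1631 and 1442 in penk+/+ replicates 1 to 4. Every penk-/- library was below every penk+/+ library, with penk-/- replicate 1 closest to the control group. The mean was 1004 ± 169 in penk-/- and 1544 ± 77.7 in penk+/+ chimeras (± SD, 4 mice each). The log2 fold change was -0.63 (standard error 0.11, 95% interval -0.88 to -0.39), a level 0.645 times the control level. Nlrp1b was the only member of the 10 whose groups did not overlap. Of all genes tested, 2.74% were lower in penk-/- libraries without overlap and 2.89% were higher without overlap. Nlrp1b (ENSMUSG00000070390) is located on the minus strand of chromosome 11 (GRCm39, 71043928 to 71121559), next to related copies with which it could share reads. The Penk-/- donors were of a B6.129 strain, and whether sequence differences of the strain at this locus affected the alignment was not tested. Of the related copies, Nlrp1a was at 12.7 ± 4.81 (penk-/-) and 11.2 ± 2.36 (penk+/+) normalized counts, and Nlrp1c-ps at 7.07 ± 4.32 and 3.83 ± 1.87 (± SD, 4 mice each).

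Nlrp6, a sensor linked in the intestine to antimicrobial defence and to mucus secretion by goblet cells, was at 9594, 7346, 5983 and 7802 normalized counts in penk-/- replicates 1 to 4. In penk+/+ replicates 1 to 4 it was at 11833, 10606, 11878 and 9431. The groups overlapped by one library of each genotype, since penk-/- replicate 1 was above penk+/+ replicate 4. The mean was 7681 ± 1491 in penk-/- and 10937 ± 1164 in penk+/+ chimeras (± SD, 4 mice each). The log2 fold change was -0.52 (standard error 0.14, 95% interval -0.83 to -0.22). Without the pair of libraries rich in Pbsn, the log2 fold changes were -0.59 for Nlrp1b and -0.48 for Nlrp6. On the same 6 libraries they were 0.05 for Pycard, -0.04 for Casp1, -0.29 for Casp4, -0.18 for Il18, 0.03 for Il1b and -0.15 for Il33.

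Nlrp3, the sensor of ion fluxes and of many other disturbances in myeloid cells, had the lowest mean of the members (31.6 normalized counts). Its normalized counts were 15.1, 35.5, 47.2 and 22.1 in penk-/- replicates 1 to 4 and 24.9, 30.4, 53.1 and 24.0 in penk+/+ replicates 1 to 4. The groups covered nearly the same range, and the highest library of each genotype was replicate 3. These values rested on 15 to 65 reads per library, so that counting error alone amounted to 17.7% of the mean, against a total spread of 41.3% over the 8 libraries. The log2 fold change was -0.19 (95% interval -1.05 to 0.67). It was -0.56 without the pair of libraries rich in Pbsn, and its sign turned when penk-/- replicate 1 (0.09) or penk+/+ replicate 3 (0.06) was left out.

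**Figure D1:**
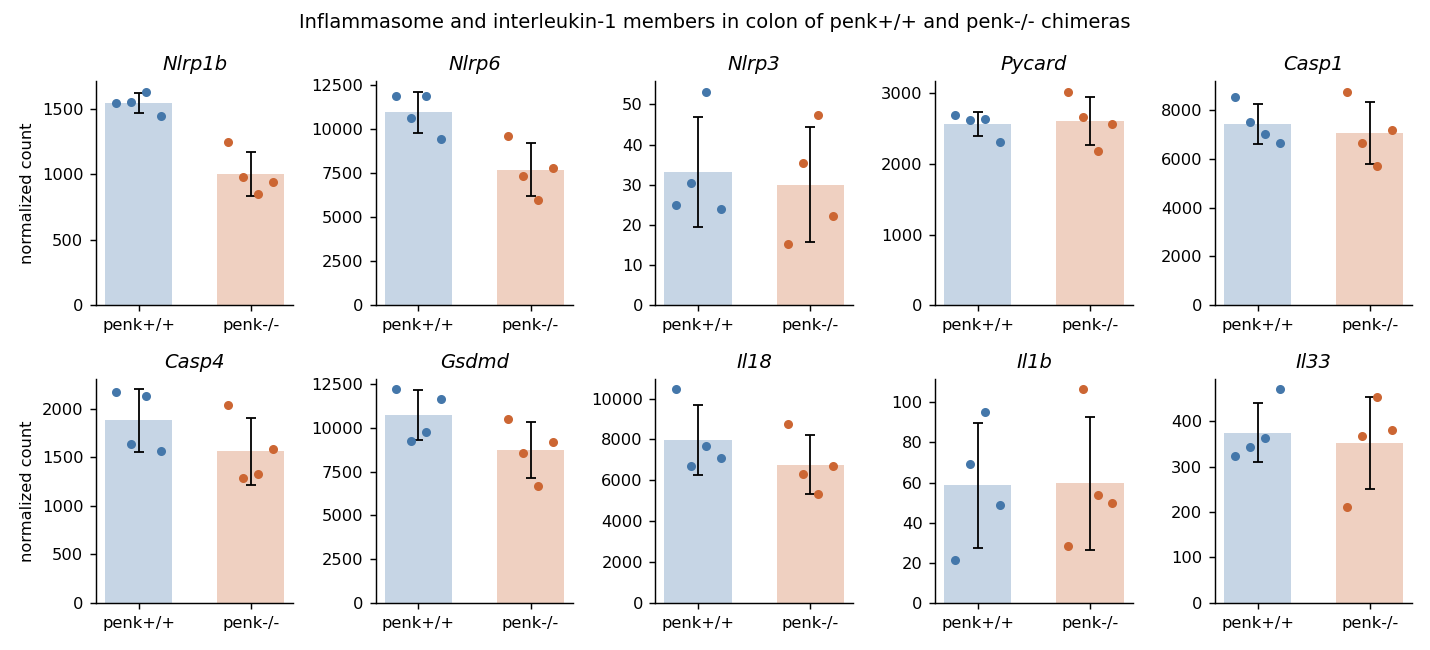
Normalized counts (vertical axes, from 0, a scale for each gene) of the 10 members in penk+/+ and penk-/- chimeras, with bars for the mean, error bars for the SD (n = 4) and a point for each mouse. The Nlrp1b points of the genotypes do not overlap, with at most 1244 in penk-/- and at least 1442 in penk+/+ chimeras, whereas those of the other 9 genes overlap.

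The adaptor and the caspases follow. Pycard was between 2187 and 3025 normalized counts in penk-/- and between 2318 and 2689 in penk+/+ chimeras, with a log2 fold change of 0.02 (95% interval -0.20 to 0.24). Casp1 was between 5720 and 8760 in penk-/- and between 6638 and 8529 in penk+/+ chimeras, with a log2 fold change of -0.08 (95% interval -0.37 to 0.20). For these genes the penk-/- range enclosed that of the controls, and both intervals included 0. Casp4 had 2041, 1289, 1323 and 1588 normalized counts in penk-/- replicates 1 to 4 and 2173, 1640, 2133 and 1565 in penk+/+ replicates 1 to 4. Its groups overlapped, with a log2 fold change of -0.28 (95% interval -0.64 to 0.09). The sign of the fold change turned for Pycard without penk-/- replicate 1 (-0.06) or penk+/+ replicate 4 (-0.03), and for Casp1 without penk-/- replicate 3 (0.01).

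Gsdmd, which encodes the pore-forming protein at the end of the pathway, was at 10483, 8548, 6704 and 9220 normalized counts in penk-/- replicates 1 to 4. The penk+/+ replicates 1 to 4 had 12197, 9242, 9780 and 11644. Only penk-/- replicate 1 reached into the control range. The mean was 8739 ± 1576 in penk-/- and 10716 ± 1426 in penk+/+ chimeras (± SD, 4 mice each), and the log2 fold change was -0.30 (95% interval -0.62 to 0.01). It was -0.14 without the pair of libraries rich in Pbsn, of which the penk-/- library had the lowest value of all 8 libraries and the penk+/+ library the second highest.

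Of the cytokines, Il18 was the most abundant. It was at 8746, 6317, 5317 and 6707 normalized counts in penk-/- replicates 1 to 4 and at 10451, 6691, 7661 and 7111 in penk+/+ replicates 1 to 4. Replicate 1 was the highest library of both genotypes, and the groups overlapped. The log2 fold change was -0.24 (standard error 0.17, 95% interval -0.62 to 0.15). It was -0.10 when penk+/+ replicate 1 was left out and -0.37 when penk-/- replicate 1 was left out. Il18 lies on chromosome 9, from 50466081 to 50493633 on the plus strand, and overlaps Bco2 and Tex12 on the other strand. As the strand setting of the counting is not given in the sources used here, reads of the overlap could have been shared. Bco2 had 1199 ± 242 and Tex12 80.7 ± 19.4 normalized counts in penk-/- chimeras, against 1536 ± 406 and 109 ± 29.9 in penk+/+ chimeras (± SD, 4 mice each).

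Il1b was at 28.3, 106.5, 53.8 and 49.7 normalized counts in penk-/- replicates 1 to 4 and at 21.2, 69.4, 95.1 and 48.9 in penk+/+ replicates 1 to 4. Both genotypes held libraries with low and with high values, and the spread within a genotype was larger than the difference between them. The log2 fold change was 0.06 (standard error 0.49, 95% interval -1.05 to 1.17), the widest interval of the 10 members. Its sign turned without penk-/- replicate 2 (-0.27) or penk+/+ replicate 1 (-0.36). On the other strand, Il1bos and Gm14023 overlap Il1b, with 5.53 ± 2.52 and 28.3 ± 5.55 normalized counts in penk-/- and 7.15 ± 2.07 and 24.9 ± 5.75 in penk+/+ chimeras (± SD, 4 mice each). Il33 was at 211, 366, 453 and 380 in penk-/- replicates 1 to 4 and at 322, 343, 364 and 470 in penk+/+ replicates 1 to 4. Its groups overlapped, with a log2 fold change of -0.13 (95% interval -0.63 to 0.38) that became 0.10 without penk-/- replicate 1, the lowest library.

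**Figure D2:**
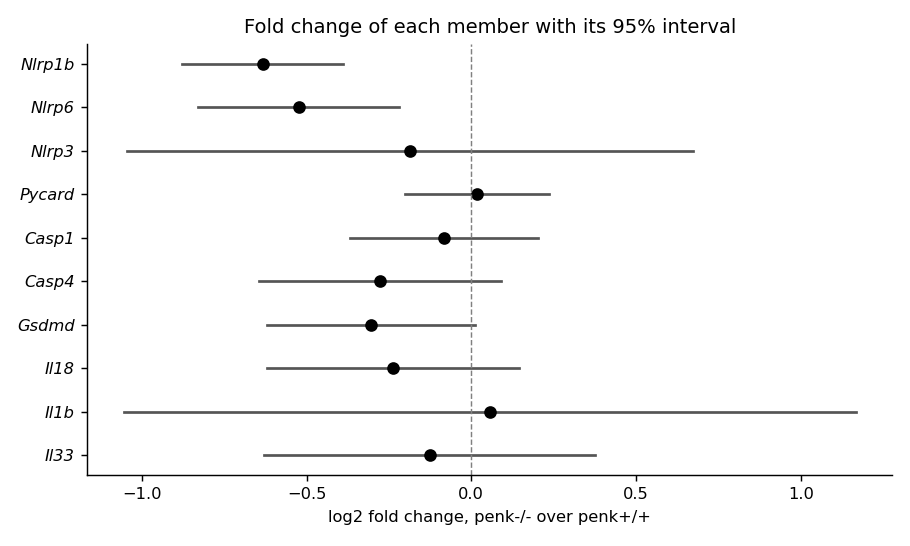
Log2 fold change of each member in penk-/- over penk+/+ chimeras (horizontal axis; points) with its 95% interval (lines) from limma on 4 libraries of each genotype, not adjusted for the number of genes. The intervals of Nlrp1b (-0.88 to -0.39) and Nlrp6 (-0.83 to -0.22) lie below 0, and those of Nlrp3 and Il1b are the widest.

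Levels of different genes were compared per kilobase of exon (union of the exons in GENCODE M39). Over the 8 libraries, the order was Gsdmd (mean of 3239 normalized counts per kilobase), Il18 (2451), Casp1 (2313), Nlrp6 (1832), Pycard (612), Casp4 (327), Nlrp1b (202), Il33 (58.9), Il1b (22.7) and Nlrp3 (7.78). Neighbours whose ranges over the libraries did not overlap were Nlrp6 and Pycard, Pycard and Casp4, and Nlrp1b and Il33. Il18 and Casp1 could not be ordered, since Il18 was above Casp1 in 4 of the 8 libraries. For the remaining neighbours the ranges overlapped, although the first was above the second in at least 7 of the 8 libraries. The level of Nlrp1b per kilobase was 159 in penk-/- and 245 in penk+/+ chimeras, below that of Casp4 (297 and 358) in all 8 libraries.

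The epithelial members were then set against the myeloid ones. The mean log2 level of Nlrp1b, Nlrp6 and Il18 was 12.20, 11.80, 11.55 and 11.84 in penk-/- replicates 1 to 4 and 12.49, 12.23, 12.37 and 12.16 in penk+/+ replicates 1 to 4, a difference of -0.47. For Nlrp3 and Il1b, the mean log2 level was 4.44, 5.97, 5.68 and 5.10 in penk-/- and 4.58, 5.56, 6.17 and 5.14 in penk+/+ replicates 1 to 4, a difference of -0.07. The epithelial mean minus the myeloid mean was 6.55 ± 0.91 in penk-/- and 6.95 ± 0.72 in penk+/+ chimeras (± SD, 4 mice each). This difference of -0.40 was smaller than the SD between mice of either genotype, and it ranged from -0.80 without penk-/- replicate 1 to -0.08 without penk+/+ replicate 1. Without the pair of libraries rich in Pbsn it was -0.15, and with Nlrp1b left out of the epithelial mean it was -0.32. Replicate 1 of each genotype had the largest epithelial excess, with 7.76 in penk-/- and 7.91 in penk+/+ chimeras.

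**Figure D3:**
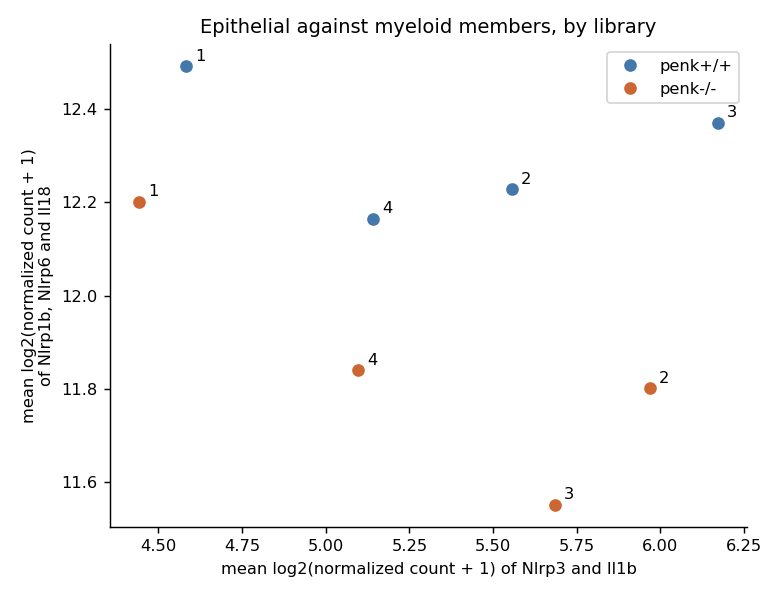
Mean log2(normalized count + 1) of Nlrp1b, Nlrp6 and Il18 (vertical axis) against that of Nlrp3 and Il1b (horizontal axis), with a point for each library labelled by its replicate number. The myeloid means of both genotypes spread from below 4.6 to about 6, whereas the epithelial means of 3 of the 4 penk-/- libraries lie below those of all penk+/+ libraries.

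Markers of the cell types of the biopsy moved with some of these values. In whole tissue, fewer cells of a type and less RNA per cell cannot be told apart. The summed counts of 10 epithelial markers, of which Krt8 was the most abundant, were 595560, 500493, 432742 and 547976 in penk-/- replicates 1 to 4 and 639741, 569114, 527876 and 598512 in penk+/+ replicates 1 to 4. Their log2 difference was -0.18, and 9 of the 10 markers had a log2 fold change below 0, none with an adjusted p below 0.05 with limma. Set per 100000 counts of these markers, a scaling chosen after seeing the data, Nlrp1b was at 209, 196, 196 and 172 in penk-/- and at 242, 273, 309 and 241 in penk+/+ replicates 1 to 4. The groups of Nlrp1b again did not overlap, and the log2 difference was -0.46. The share of all genes without overlap on this scale was not computed, so this separation is a description only. For Nlrp6, the log2 difference on this scale was -0.35 and the groups overlapped. Il18 differed by -0.06, Gsdmd by -0.13 and Casp4 by -0.10 on the same scale, whereas Pycard differed by 0.19 and Casp1 by 0.09.

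The summed counts of 12 macrophage markers, with Csf1r the most abundant, were 10281, 12424, 12937 and 12280 in penk-/- and 8090, 12673, 12322 and 9781 in penk+/+ replicates 1 to 4. Of these markers, 10 had a log2 fold change above 0 and 2 below 0, none with an adjusted p below 0.05 with limma. Nlrp3 was at 1.47, 2.86, 3.65 and 1.80 per 1000 macrophage marker counts in penk-/- and at 3.08, 2.40, 4.31 and 2.45 in penk+/+ replicates 1 to 4, and Il1b per 1000 macrophage marker counts was 4.88 ± 2.54 in penk-/- and 5.2 ± 2.09 in penk+/+ chimeras (± SD, 4 mice each). The groups overlapped for both. The neutrophil markers S100a8 and S100a9 were at or near 0, with at most 8 and 13.1 normalized counts. Csf3r was at 59.9 ± 16.4 in penk-/- and 53.1 ± 18.5 in penk+/+ chimeras (± SD, 4 mice each). Ly6g, the most abundant of that list, was between 3061 and 6438. The log2 fold change was -0.42 for Ly6g and 0.20 for Csf3r, and the cells that gave the Ly6g counts were not determined. The names Cxcr2, Mpo and Ngp matched no gene with a normalized count, so these markers could not be analysed. All 7 fibroblast markers, led by Col3a1, had a log2 fold change above 0, and their summed counts were 63272 ± 10588 in penk-/- and 53929 ± 12919 in penk+/+ chimeras (± SD, 4 mice each). For 7 smooth muscle markers, led by Myh11, the sums were 207471 ± 44083 and 193977 ± 37993 (± SD, 4 mice each). Goblet cell markers, led by Fcgbp, summed to 486864 ± 86595 and 509120 ± 60251, and endothelial markers, led by Lyve1, to 6636 ± 969 and 6046 ± 1066 (± SD, 4 mice each). Mast cell markers, led by Cpa3, summed to 94.1 ± 46.9 and 58.5 ± 33.1 (± SD, 4 mice each). The highest mast cell sum of each genotype came from the pair rich in Pbsn, with 149 in penk-/- replicate 3 and 105 in penk+/+ replicate 4. The part of these cell types in the differences of the members was not tested.

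Relations of each of the 10 members to the epithelial, macrophage and smooth muscle sums were computed over the 8 libraries, 30 relations in all. The members were chosen on the genotype contrast, in which these sums also differed (log2 difference -0.18, 0.18 and 0.09). The relations and their p are therefore a description. With Pearson's r on the log2 scale, 2 of the 30 had an adjusted p below 0.05 (exact permutation over the 40320 pairings, two-sided, Benjamini-Hochberg over the 30). Gsdmd rose with the epithelial markers (r = 0.96, exact p = 0.000471, adjusted p = 0.0141). Its Spearman's rho was 0.93 (exact p = 0.00223, adjusted p = 0.0670), and r was 0.81 without the 2 libraries farthest from the median. Il1b rose with the smooth muscle markers (r = 0.92, exact p = 0.00231, adjusted p = 0.0346). Its Spearman's rho was 0.90 (exact p = 0.00456, adjusted p = 0.0685), and r was 0.81 without the 2 libraries farthest from the median. After each value was centred on the mean of its genotype, r was 0.94 for the former and 0.92 for the latter, with 4 libraries in each genotype being too few for a separate r. With Spearman's rho, 0 of the 30 relations had an adjusted p below 0.05. The count was also 0 without penk-/- replicate 1, 2 or 3 or without penk+/+ replicate 1, and it was 7 without penk+/+ replicate 3.

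Il18 had an r of 0.85 with the epithelial (exact p = 0.00833) and of -0.84 with the macrophage markers (exact p = 0.00791), both with an adjusted p of 0.0568. The same adjusted p was found for Nlrp3 with the smooth muscle markers (r = 0.83, exact p = 0.0129), Casp1 with the epithelial markers (r = 0.83, exact p = 0.0111) and Gsdmd with the macrophage markers (r = -0.83, exact p = 0.0132). Without the 2 libraries farthest from the median, r was 0.54 and -0.83 for these relations of Il18, 0.73 for that of Nlrp3, 0.50 for that of Casp1 and -0.66 for that of Gsdmd. For Il1b, r was 0.80 with the macrophage markers (exact p = 0.0163, adjusted p = 0.0610). Nlrp6 and Nlrp1b had an r of 0.78 and 0.70 with the epithelial markers. As these members were chosen on the genotype contrast, in which the epithelial sum also differed, these values are a description, and after centring on the genotype r was 0.70 and 0.61. Uncentred, the r of Nlrp6 and Nlrp1b became 0.33 and 0.38 without the 2 libraries farthest from the median, so that they rested on penk-/- replicate 3 and penk+/+ replicate 1. Nlrp3 had an r of -0.70 with the epithelial markers (exact p = 0.0506, adjusted p = 0.119), and of -0.95 after centring on the genotype. Its permutation p after centring (0.000372, not adjusted) was the smallest of the 30 relations. This p is approximate, because centring ties the values of a genotype to each other. All these measures came from the same libraries and shared their size factors.

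**Figure D4:**
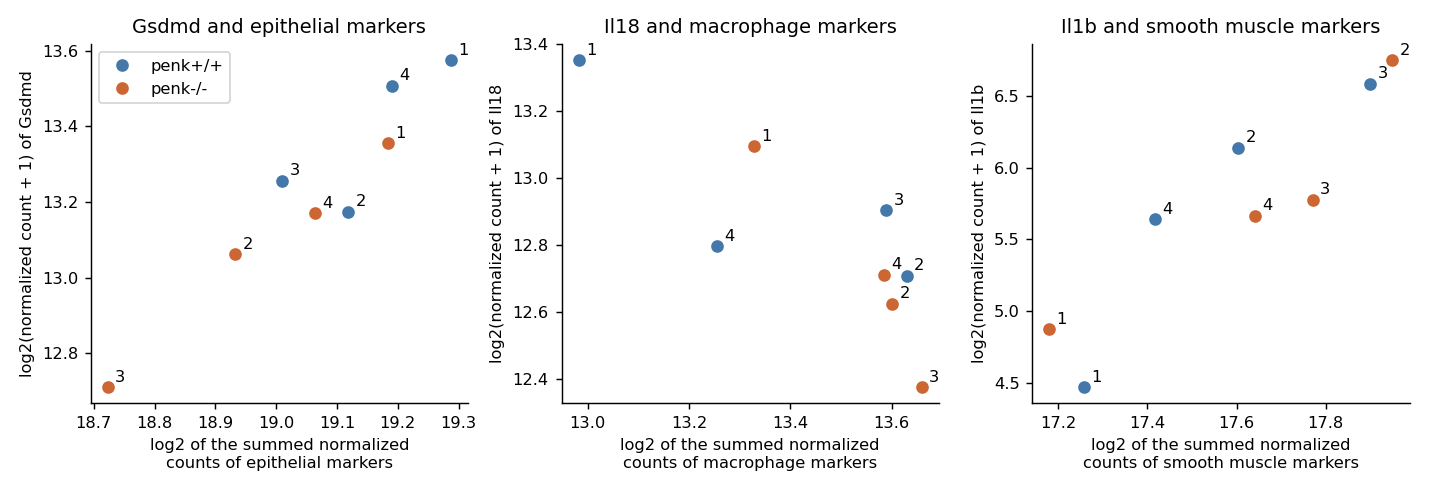
Log2 levels of Gsdmd, Il18 and Il1b (vertical axes) against the log2 summed counts of epithelial, macrophage and smooth muscle markers (horizontal axes), with a point for each library labelled by its replicate number. Gsdmd rises with the epithelial markers (r = 0.96), Il1b with the smooth muscle markers (r = 0.92), and Il18 is lower where macrophage markers are higher (r = -0.84).

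Among the members themselves, the correlations over the 8 libraries are given as a description. Nlrp1b and Nlrp6 had an r of 0.96, Casp1 and Il18 of 0.88, Casp4 and Il18 of 0.88, and Gsdmd and Il18 of 0.86. Nlrp3 and Il1b had an r of 0.68 with each other, and Il1b had an r of -0.67 with Il18. Il33 and Pycard varied in opposite directions (r = -0.92). The tested genes most like Nlrp6 over the 8 libraries were Cdc14b (r = 0.99), Gm9926 (0.99) and Gal3st2b (0.98), and those most like Il18 were Mfsd6 (0.995), Arel1 (0.995) and Ms4a8a (0.99). Mvb12b, Ptn and Ift80 (all 0.98) were most like Nlrp3. Fam83d (0.99), Emilin1 (0.98) and Pbxip1 (0.97) were most like Il1b, and Kank4 (0.98), Gm50232 (0.97) and Cntfr (0.97) most like Il33. Each of these is the highest of the correlations with all genes tested and is given with no p.

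The other genes of the pathway were taken from a list of 57 names, of which 49 were measured and tested. None had an adjusted p below 0.05 with limma, edgeR or DESeq2 (which gave no adjusted p for 6 of them), and none had groups without overlap. Of the 49 genes, 29 had a log2 fold change below 0 and 20 above 0, with a median of -0.02, against a median of 0.01 over all genes tested, of which 48.9% were below 0. The median of the 10 members was -0.21, with 8 below 0.

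Of 10 other sensors measured, 9 had a log2 fold change below 0, and their median was -0.26. The lowest was Nlrp9b, a sensor of intestinal epithelial cells, with 4566, 2924, 2460 and 3371 normalized counts in penk-/- and 5721, 4619, 5171 and 3353 in penk+/+ replicates 1 to 4 (log2 fold change -0.51, 95% interval -0.97 to -0.05). Its groups overlapped, and its adjusted p was 0.474 with limma. The highest was Nlrp1a (0.12), and the most abundant in normalized counts was Naip1, which recognizes bacterial secretion needles (10836 ± 2353 in penk-/- and 13941 ± 2579 in penk+/+ chimeras, ± SD, 4 mice each). The name Nlrp12 matched no gene with a normalized count, so it could not be analysed. Of 9 genes that comprise the other gasdermins, other caspases and Ninj1, a gene of plasma membrane rupture, 3 were below 0 and 6 above 0, with a median of 0.04. Their lowest value was that of Casp8, an initiator of apoptosis (-0.17), and their highest that of Gsdma3 (0.56, 95% interval -2.49 to 3.60). Gsdma3 had 47.2 normalized counts in penk-/- replicate 3 and 64.3 in penk+/+ replicate 4, the pair of libraries rich in Pbsn, and at most 5.72 in the other 6. Gsdma, named after its values were seen, had 5629 and 5375 in the same libraries and at most 923 in the other 6. Gsdmc4 was the most abundant gene of this list.

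Interleukin-1 ligands other than the members were represented by Il1a and by Il1rn, the receptor antagonist, with log2 fold changes of -0.04 and -0.05. The 9 receptor and decoy genes had a median of 0.02, from -0.42 for Il1rl1, the receptor of interleukin-33, to 0.17 for Il18rap, the accessory chain of the interleukin-18 receptor. Among 7 genes of the signalling chain, values lay between -0.23 for the kinase gene Irak2 and 0.09 for Myd88, the adaptor below these receptors. Among 12 regulators of inflammasomes, the median was -0.01, with the lowest value for Txnip, a thioredoxin-binding protein (-0.45, 95% interval -0.83 to -0.07), and the highest for Gbp3, a guanylate-binding protein (0.05). Txnip had 37457, 47588, 25288 and 39184 normalized counts in penk-/- and 45230, 51174, 53782 and 49801 in penk+/+ replicates 1 to 4. Its groups overlapped, and its adjusted p was 0.453 with limma.

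**Figure D5:**
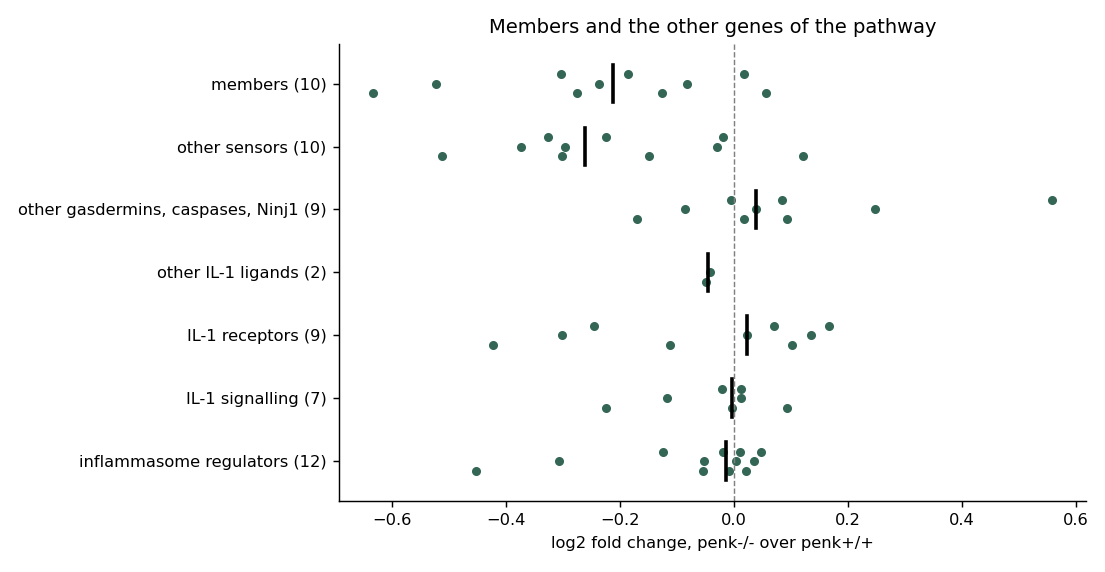
Log2 fold change in penk-/- over penk+/+ chimeras (horizontal axis) of the members and of 6 lists of other genes of the pathway, with the number of genes tested in parentheses, a point for each gene and a bar for the median of each list. The medians of the members (-0.21) and of the other sensors (-0.26) lie below 0 and those of the other lists between -0.05 and 0.04.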

How the data were processed

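Colonic biopsies of 4 penk-/- and 4 penk+/+ chimeras gave stranded, paired-end poly-A libraries. The authors used FastQC, STAR 2.7.8a (GRCm39, Ensembl annotation) and DESeq2 1.30.0. The values they deposited are a normalized count signal, that is reads scaled by library size factors. Of the values checked in each library, 100% were whole multiples of its step within a small rounding tolerance. The reads (33.1 M to 50.7 M) were recovered on this basis. The step of penk-/- replicate 1 was 1.01, so close to 1 that its normalized values and its reads nearly coincide. Genes with a mean normalized count of at least 10 were compared with limma 3.58.1 on log2(value + 1), two-sided, without covariates. The test was planned for normalized values, while the study used DESeq2, which was run as an alternative with edgeR on the recovered reads. The members and all gene lists were chosen with earlier results of these data known. The genes named are Penk, the members and the genes that overlap them, the lowest, highest and most abundant gene of each list, and the 3 genes most like each of Nlrp6, Il18, Nlrp3, Il1b and Il33. Nlrp1c-ps, S100a8, S100a9 and Gsdma were named after their values were seen. No pair of libraries was within sampling noise (smallest chi-square per degree of freedom 11.2). Correlations were tested by exact permutation with Python 3.11.15, numpy 2.4.6 and scipy 1.17.1.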

Additional observations from a re-analysis of the deposited data

Results flagged for a closer look

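Of 40 groups of 4 libraries examined, 2 held a library that stood apart from the other 3 by Dixon's criterion, and chance gives about 2 of 40. Pycard was lower in penk+/+ replicate 4 (2318 normalized counts) than in the other penk+/+ libraries (2629 to 2689), with a gap of 0.838 of the range. This library is one of the pair rich in Pbsn. The summed fibroblast markers were lower in penk-/- replicate 1 (47465) than in the other penk-/- libraries (67548 to 69959), with a gap of 0.893 of the range. The same library had the highest Nlrp1b, Nlrp6, Il18, Casp1, Casp4, Gsdmd and Pycard values and the lowest Nlrp3, Il1b and Il33 values of its genotype. No cause was tested for either.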

How the results depend on the processing

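The count of genes with an adjusted p below 0.05 was 0 with limma. It was 205 with DESeq2, 1 with quantile normalization, 1 with the replicate number as a block, and between 0 and 6 when a library was left out, 6 without penk-/- replicate 1. The count was 0 with edgeR, pseudocounts of 0.1 and 8, no filter, limma without trend, a mean minimum of 50, and without the pair of libraries rich in Pbsn. With the replicate block, no member had an adjusted p below 0.05. Replicate numbers mark different mice, and the deviations of same-numbered libraries had correlations between -0.32 and 0.15, so that the numbers pair nothing. The log2 fold changes of Nlrp1b (-0.74 to -0.56), Nlrp6 (-0.64 to -0.41), Gsdmd, Casp4 and Il18 kept their sign under all 18 alternative settings, whereas those of Nlrp3, Pycard, Casp1, Il1b and Il33 turned in at least 1. Nlrp3 was not tested with a mean of at least 50. The count of relations to tissue markers (2 of 30) was 6 with the mean of the log2 markers and 0 with Spearman's rho. It was 6 after centring on the genotype (with approximate p) and 1 without the pair rich in Pbsn. When a library was left out, it was between 0 and 7. The cause of these changes was not tested. With 4 mice per genotype, the spread between mice limits the precision, also for Nlrp3 and Il1b, whose counting error was 17.7% and 13.1% of the mean against a total spread of 41.3% and 50.6%.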
